A study of Homo sapiens with 6 samples.

Results

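Metastasis suppressor genes were compared between 2 human colon cancer cell lines, E1 and HCT116, with 3 Affymetrix arrays each. The genes were NME1, KISS1, BRMS1, MAP2K4, MAP2K7, PEBP1, AKAP12, TXNIP, GSN and DRG1, chosen by name, with earlier results of these data known. All probe sets that the platform annotation assigns to exactly 1 of these 10 symbols were kept, which gave 15 probe sets for 9 genes, of 22215 probe sets in all. MAP2K7 had no such probe set and was not analysed here. E1 is labelled as a metastatic line derived in vivo, and its cell line field also reads HCT116. HCT116, a widely used colon cancer line, is labelled poorly metastatic. The labels name no treatment, do not give the host or passage of E1 or whether it is 1 clone, and do not state if a line's 3 arrays represent separate cultures. The spread behind each p-value is that of these arrays and may be technical only.

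A metastasis suppressor is defined by function: restoring it to a metastatic cell lowers spread to distant sites while the primary tumour still grows. The products act at different steps, from a secreted peptide and stress kinases to scaffolds, chromatin regulators and actin-severing proteins. Lower transcript levels of several of them have been described in metastatic tumours of various tissues. One name needs care. DRG1 is the official symbol of a GTP-binding protein that takes part in translation, whereas the suppressor once called differentiation-related gene 1 is now NDRG1, so DRG1 is a member here by its symbol and NDRG1 is described beside it.

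No member passed the test. In a limma fit over all probe sets, 0 of 15 member probe sets had a Benjamini-Hochberg adjusted p under 0.05, where 0.77% of all probe sets did (48 higher and 123 lower in E1). At an unadjusted p under 0.05, 5 member probe sets were lower in E1 and 0 were higher. The same limit was met by 11.7% of all probe sets on the lower side and by 4.75% on the higher side. The 5 belonged to BRMS1, MAP2K4, PEBP1, AKAP12 and GSN, and their E1 arrays all lay below their HCT116 arrays, a pattern that 13% of all probe sets shared. MAP2K4, PEBP1 and GSN each had another probe set whose arrays overlapped between the lines. The median difference of the 15 probe sets, in log2(intensity + 32) and E1 minus HCT116, was -0.14, against -0.016 for all probe sets. Their median size without regard to sign was 0.32, against 0.20 for all probe sets, and 1 of 15 differed at least 2-fold on this scale, as did 6.08% of all. The members were brighter than most, at a median signal percentile of 83 with 12 of 15 above the median, and the offset compresses differences of dim probe sets. Without the dimmest 40% of probe sets, 4 of 12 member probe sets and 16.1% of all were lower at an unadjusted p under 0.05 in limma. Probe sets of 1 gene share its transcripts and are not independent. In lysates of whole cultures, fewer cells expressing a gene and less RNA per cell cannot be told apart.

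The direction of the small differences depended on how the arrays were scaled. In the deposited values 11 of the 15 differences were negative and 4 positive. When each array's median was subtracted, which moved the median difference of all probe sets to 0.13, 7 were negative and 8 positive. The counts at an unadjusted p under 0.05 then were 1 lower and 2 higher, and after quantile normalization 2 lower and 2 higher. Of all probe sets, 17.8% met that limit after median subtraction, 8.26% on the lower side. After quantile normalization the shares were 17.7% and 7.54%. No member was called under either scaling.

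The E1 arrays were not alike in the 3' to 5' signal of control probe sets, and the cause was not tested. The ratio of 3' to 5' signal of the GAPDH control probe sets was 0.803 on E1 array 1, 34.1 on E1 array 2 and 71.9 on E1 array 3, against 0.774 to 0.811 on the HCT116 arrays. Pearson's r across probe sets, which share these libraries, was 0.934 and 0.921 between E1 array 1 and the other E1 arrays, below its 0.957 to 0.962 with HCT116. E1 arrays 2 and 3 stood at 0.969 to each other. Values of E1 array 1 alone against the 3 HCT116 arrays are therefore given beside the results. That fit takes its spread from HCT116 and assumes that E1 varies likewise. In it, 0 of 15 member probe sets were called, as were 0% of all probe sets, and 12.6% of all probe sets and 2 of the 15 had an unadjusted p under 0.05. Without E1 array 1, 10.6% of all probe sets were called and again none of the 15. Of 10 colon epithelial markers, 6 were in the brightest 25% of probe sets and 0 were called, with 3 at an unadjusted p under 0.05. Their summed intensities were 11738 to 15218 in E1 and 18006 to 20376 in HCT116, without overlap. KRT18, KRT19 and EPCAM had mean intensities of 5918 ± 323, 2169.6 ± 972 and 2689.6 ± 897 in E1 and 7847 ± 537, 3540.1 ± 423 and 1950.1 ± 62.5 in HCT116 (SD, n = 3 each). KRT8, chosen after its values were seen, read 2862, 372 and 103 in E1, against 4693, 3169 and 4352 in HCT116, a difference of -2.91 (adjusted p = 0.262 in limma) that was -0.48 with E1 array 1 alone. Its part in the results on the members was not tested. The colon-type markers CDH17, VIL1 and CDX2 all lay below the 20th percentile of signal in these arrays, at means of 18.8, 9.57 and 6.69 in E1 and 4.25, 11.0 and 13.0 in HCT116. On the E1 arrays CDH17 read 5.73, 41.4 and 9.29. KRT20, another marker of this list, lay higher, at the 45.3th percentile, with means of 67.7 in E1 and 35.3 in HCT116. Summed intensities of 8 fibroblast markers were 296 to 434 in E1 and 367 to 425 in HCT116. Those of 6 endothelial markers were 102 to 140.4 in E1 and 99.5 to 119 in HCT116. Those of 6 leukocyte markers were 215 to 227 in E1 and 210.3 to 283 in HCT116. None of the 20 was called. Above the median of all signals lay 3 of the 8 fibroblast, 0 of the 6 endothelial and 2 of the 6 leukocyte markers. The brightest of the 20, COL1A1, had mean intensities of 137 in E1 and 168 in HCT116. The dimmest, LUM and CDH5, lay at 1.61 and 2.39 in E1 and 0.367 and 2.49 in HCT116. The part of other cell types in the results was not tested.

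**Figure D1:**
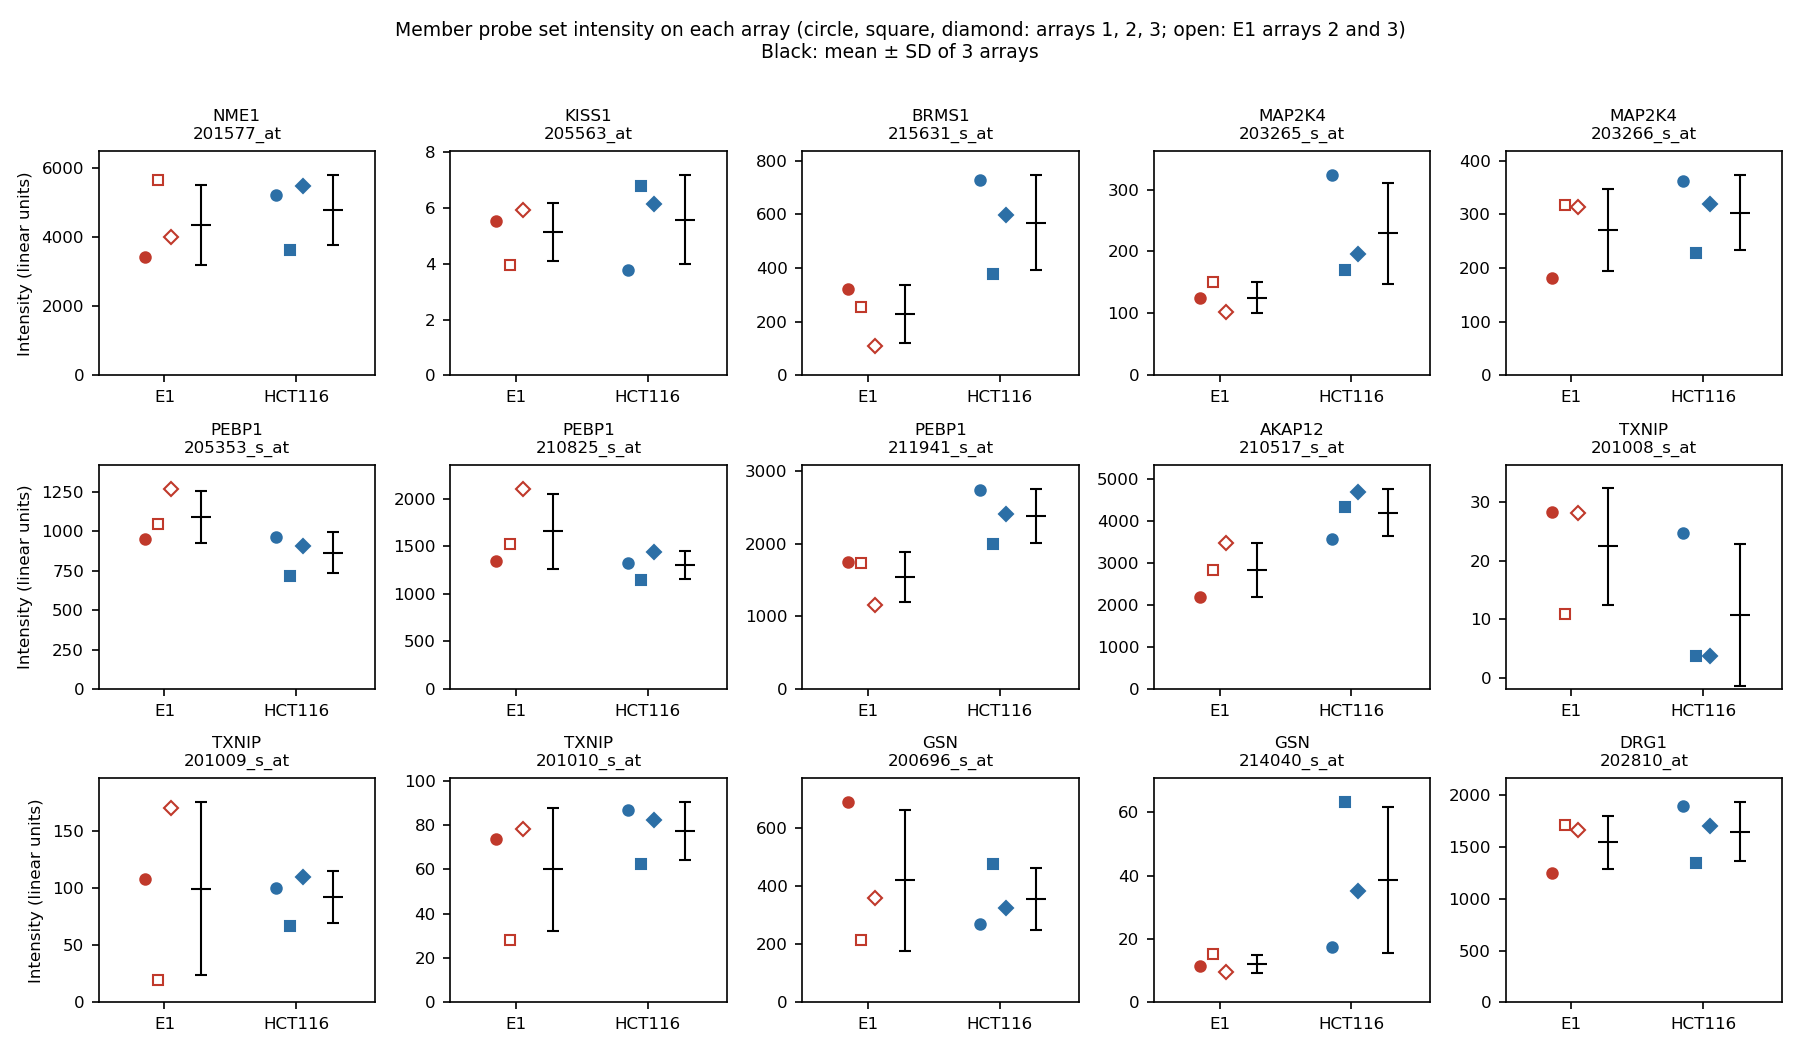
Intensity of each of the 15 member probe sets in linear units, with 1 point per array for E1 and HCT116 and black bars for mean ± SD of 3 arrays; circles, squares and diamonds are arrays 1, 2 and 3, and open points are E1 arrays 2 and 3. The E1 points lie below all HCT116 points for BRMS1, AKAP12 and 1 probe set each of MAP2K4, PEBP1 and GSN, and they overlap for the other 10.

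BRMS1 had the smallest p of the members and AKAP12 the smallest with E1 array 1 alone, so a promoter window of each is shown as genomic context for those transcripts. Each window runs from 250 bases before to 50 bases after an annotated gene start, in RefSeq on assembly GRCh38.p14. Capitals mark matches on either strand to the E-box CACGTG, the CCAAT box CCAAT and the GC box GGGCGG. The BRMS1 window lies at chr11:66345055-66345354 on the minus strand, and the AKAP12 window, the most upstream of 3 annotated starts, at chr6:151239717-151240016 on the plus strand.
BRMS1: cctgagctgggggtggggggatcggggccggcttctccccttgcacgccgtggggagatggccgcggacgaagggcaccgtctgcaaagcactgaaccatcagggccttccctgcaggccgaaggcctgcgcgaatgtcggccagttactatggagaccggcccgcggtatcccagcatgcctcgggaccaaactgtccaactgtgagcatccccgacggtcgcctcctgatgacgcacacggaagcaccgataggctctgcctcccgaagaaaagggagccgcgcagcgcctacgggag
AKAP12: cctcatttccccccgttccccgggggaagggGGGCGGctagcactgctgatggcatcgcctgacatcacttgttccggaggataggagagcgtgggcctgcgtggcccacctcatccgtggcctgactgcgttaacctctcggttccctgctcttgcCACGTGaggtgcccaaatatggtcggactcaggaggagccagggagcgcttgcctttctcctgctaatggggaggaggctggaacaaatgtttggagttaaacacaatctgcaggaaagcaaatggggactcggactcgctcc
None of the 3 letter strings occurs in the BRMS1 window, and the AKAP12 window holds 1 E-box and 1 GC box. Of 35116 RefSeq windows of this length, 7.26% hold the E-box, 34.6% the CCAAT box and 45% the GC box, and the matches do not overlap each other here. A match describes the letters and not a bound site.

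KISS1 encodes the secreted precursor of kisspeptins, ligands of a G protein-coupled receptor. Its probe set 205563_at read 5.55, 3.97 and 5.94 on E1 arrays 1, 2 and 3, against 3.77, 6.80 and 6.15 on the HCT116 arrays. All 6 values are among the dimmest on the arrays, at the 7.95th percentile of signal, and low signals have no order here. Detection calls were not used, so the gene is not called absent. The difference was -0.016 (95% interval -0.27 to 0.24, limma adjusted p = 0.972), and it was 0.13 with array medians subtracted. With E1 array 1 alone its 95% interval was -0.40 to 0.40. The offset of 32 compresses changes at this level.

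MAP2K4 is a stress kinase that phosphorylates JNK and p38. Probe set 203265_s_at read 125, 150.3 and 102 in E1, against 323, 171 and 195 in HCT116. All E1 values were below all HCT116 values, although E1 array 2 and HCT116 array 2 lay close together. The difference was -0.70 (SE 0.24, adjusted p = 0.251 in limma), and -0.69 with E1 array 1 alone. Probe set 203266_s_at read 182, 316 and 314 in E1, against 363, 227 and 319 in HCT116, and the lines overlapped. Its difference was -0.16 (SE 0.26, adjusted p = 0.844 in limma), and it was -0.62 with E1 array 1 alone and 0.073 without that array. The 2 probe sets differed from each other in their line difference by -0.54, with an exact two-sided permutation p of 0.2, where 3 against 3 arrays allow none below 0.1.

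PEBP1 is a phosphatidylethanolamine-binding protein that holds back signalling to MEK and ERK. Probe set 211941_s_at read 1742, 1735 and 1151 in E1, against 2743, 1996 and 2408 in HCT116. Its E1 arrays were all lower, by -0.63 on the log2 scale (SE 0.21, adjusted p = 0.241 in limma). The other 2 probe sets of the gene ran the other way. Probe set 205353_s_at read 949, 1049 and 1269 in E1, against 967, 719.7 and 910.1 in HCT116, a difference of 0.32 (SE 0.17, adjusted p = 0.414 in limma). Probe set 210825_s_at read 1347, 1530 and 2106 in E1, against 1329, 1144 and 1443 in HCT116, also a difference of 0.32 (SE 0.20, adjusted p = 0.484 in limma). Both overlapped between the lines, in each case through the E1 array 1 value.

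Of 8 pairs of probe sets that share a gene, those of PEBP1 held the 2 largest gaps in line difference when all arrays were used, whereas with E1 array 1 alone the GSN pair had the largest, at 1.58. Each of the 2 positive probe sets differed from 211941_s_at by 0.95, with an exact two-sided permutation p of 0.1, the smallest that 3 against 3 arrays allow, and 0.267 after Benjamini-Hochberg adjustment over 8 pairs. With E1 array 1 alone the 2 gaps were 0.57 and 0.48, and the 3 differences were 0.14 for 205353_s_at, 0.051 for 210825_s_at and -0.43 for 211941_s_at. Averaged over its probe sets, PEBP1 differed by 0.0046 (adjusted p = 0.992 in limma).

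AKAP12 is a scaffold protein that anchors protein kinases A and C at the membrane and is also known as SSeCKS or gravin. Its 1 probe set, 210517_s_at, read 2201, 2833 and 3475 in E1, against 3576, 4337 and 4681 in HCT116. Every E1 value was below every HCT116 value, with E1 array 3 close to HCT116 array 1. The means were 2836 ± 637 in E1 and 4198 ± 565 in HCT116 (SD, n = 3 each), a difference of -0.58 (SE 0.20, adjusted p = 0.253 in limma). E1 array 1, which had 3' to 5' ratios like those of HCT116, gave the lowest AKAP12 value, and with it alone the difference was -0.91 (unadjusted p = 0.0112, adjusted p = 0.288 in limma). Without it the difference was -0.41. The 16 alternatives run gave values from -0.93 to -0.41, and none of them called it. Most could not have turned the direction. With every E1 value below every HCT116 value, leaving out arrays or changing the offset keeps the sign, and other settings leave the difference itself unchanged.

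**Figure D2:**
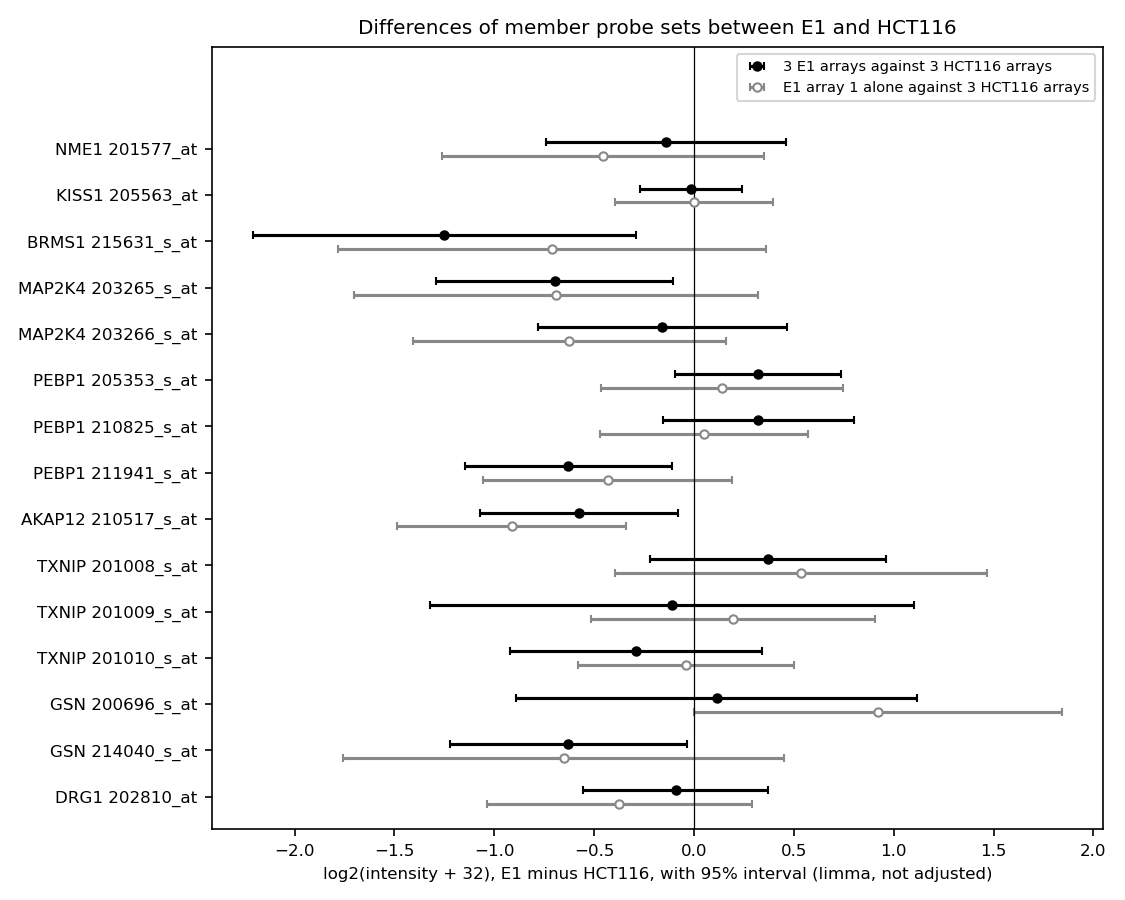
Difference of log2(intensity + 32), E1 minus HCT116, for each member probe set with its unadjusted 95% limma interval; black points use 3 E1 arrays and open grey points E1 array 1 alone, both against 3 HCT116 arrays. The black interval lies below 0 for 5 probe sets, led by BRMS1 at -1.25, and the grey interval lies below 0 only for AKAP12, at -0.91, and just above 0 for GSN 200696_s_at, at 0.92.

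BRMS1 is a subunit of SIN3-HDAC co-repressor complexes, which remove acetyl groups from histones. Its probe set 215631_s_at read 323, 255 and 111 in E1, against 729, 379 and 597 in HCT116. All E1 values were lower than all HCT116 values, and HCT116 array 2 lay nearest to E1. The means were 229.8 ± 108 in E1 and 568 ± 177 in HCT116 (SD, n = 3 each), a difference of -1.25 (SE 0.40, 95% interval -2.21 to -0.29, adjusted p = 0.218 in limma). On the scale with an offset of 32 it is the 1 member probe set with a difference of at least 2-fold. The lowest E1 values came from arrays 2 and 3, those with low 5' control signal, and with E1 array 1 alone the difference was -0.71 (unadjusted p = 0.140, adjusted p = 0.548 in limma). Without E1 array 1 it was -1.52 (adjusted p = 0.0754 in limma), and with the GAPDH ratio as a covariate it was -0.63. That ratio was high only on E1 arrays 2 and 3, so the covariate fit leans on E1 array 1 and is not a separate check. The part of the low 5' signal in the BRMS1 difference was not tested.

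The probe sets whose pattern over the 6 arrays lay nearest to BRMS1 were those of HRAS, MRPS34 and NUP188, a RAS GTPase, a mitochondrial ribosomal protein and a nuclear pore protein. Their centred log2 values differed from those of BRMS1 by a root mean square of 0.055, 0.083 and 0.088 over 6 arrays, and their line differences were -1.20, -1.15 and -1.27. They were picked for being nearest on these same values, so the closeness follows from the choice. Any shared regulation was not tested.

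NME1 encodes a nucleoside diphosphate kinase, known as NM23-H1, the first gene described as a metastasis suppressor. Its probe set 201577_at was among the brightest, at the 99th percentile, and read 3413, 5635 and 4011 in E1, against 5211, 3622 and 5487 in HCT116. The lines overlapped, with both the highest and the lowest value in E1. The means were 4353 ± 1150 in E1 and 4773 ± 1006 in HCT116 (SD, n = 3 each), a difference of -0.14 (95% interval -0.74 to 0.46, adjusted p = 0.859 in limma), which was 0.0090 with array medians subtracted. It was -0.46 with E1 array 1 alone. NME1 has a close relative, NME2, whose probe set carries more than 1 symbol and was not used here, and whether the NME1 probe set also detects NME2 transcripts was not tested.

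TXNIP binds and inhibits thioredoxin and limits glucose uptake. Among the E1 arrays, each of its 3 probe sets was lowest on array 2. Probe set 201009_s_at read 108, 19.7 and 170.1 in E1, against 99.8, 66.7 and 109.7 in HCT116. Probe set 201010_s_at read 73.8, 28.2 and 78.1 in E1, against 86.8, 62.4 and 82.4 in HCT116. Their differences were -0.11 (SE 0.50) and -0.29 (SE 0.26), with limma adjusted p of 0.957 and 0.662, and the second was -0.038 with E1 array 1 alone. The value for 201009_s_at was 0.46 without E1 array 2, 0.19 with E1 array 1 alone and 0.039 with array medians subtracted. Probe set 201008_s_at lay at the 23.4th percentile of signal. It read 28.4, 11.0 and 28.2 in E1, against 24.8, 3.70 and 3.70 in HCT116. The lines overlapped because E1 array 2 lay below HCT116 array 1. For 201008_s_at the difference was 0.37 (SE 0.24, adjusted p = 0.516 in limma) and 0.53 with E1 array 1 alone. It depended on the offset, at 1.39 with an offset of 1 and 0.15 with an offset of 100. The 95% interval of 201009_s_at, from -1.32 to 1.10, was the widest of the members, and its E1 mean was 99.4 ± 75.6 (SD, n = 3).

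GSN encodes gelsolin, which severs and caps actin filaments in a calcium-dependent way. Probe set 200696_s_at read 688, 214 and 359 in E1, against 271, 477 and 324 in HCT116. The highest and the lowest of the 6 values were both in E1. The difference was 0.11 (SE 0.41, adjusted p = 0.945 in limma), 0.92 with E1 array 1 alone (unadjusted p = 0.0498, adjusted p = 0.398 in limma) and -0.29 without that array. Probe set 214040_s_at was dim, below the median of all signals, with 11.3, 15.3 and 9.65 in E1, against 17.5, 63.1 and 35.2 in HCT116. Its E1 values were all lower, by -0.63 (SE 0.24, adjusted p = 0.283 in limma), and by -0.65 with E1 array 1 alone. With an offset of 1 this was -1.44, and with an offset of 100 it was -0.29. The line differences of the 2 probe sets were 0.74 apart (exact two-sided permutation p = 0.4), or 1.58 with E1 array 1 alone, and averaged over them GSN differed by -0.26 (adjusted p = 0.716 in limma).

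DRG1, the GTP-binding protein, read 1254, 1718 and 1664 in E1, against 1901, 1346 and 1704 in HCT116 on probe set 202810_at. The lines overlapped, and the difference was -0.093 (95% interval -0.55 to 0.37, adjusted p = 0.883 in limma), or 0.057 with array medians subtracted and -0.37 with E1 array 1 alone. NDRG1, a stress-responsive protein and the suppressor of similar name, read 1110, 465 and 1032 in E1, against 584, 1346 and 725 in HCT116 on probe set 200632_s_at. The lines overlapped here too, with a difference of -0.030 (95% interval -1.07 to 1.01, adjusted p = 0.987 in limma), which was 0.12 with array medians subtracted and 0.40 with E1 array 1 alone.

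With all arrays, the unadjusted 95% interval of 8 of the 15 member probe sets lay within -1 and 1. For them a change of 2-fold or more on this scale lay outside it. These were the probe sets of NME1, KISS1 and DRG1, 203266_s_at of MAP2K4, 205353_s_at and 210825_s_at of PEBP1, and 201008_s_at and 201010_s_at of TXNIP. For KISS1 and 201008_s_at, which are dim, the offset narrows the interval and such a change of intensity is not outside it. For BRMS1, AKAP12 and the others a 2-fold change lay inside it. With E1 array 1 alone, the intervals of NME1, DRG1 and 203266_s_at of MAP2K4 reached below -1, and that of 201008_s_at of TXNIP reached above 1. For these a 2-fold change is therefore not outside the interval of that fit.

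**Figure D3:**
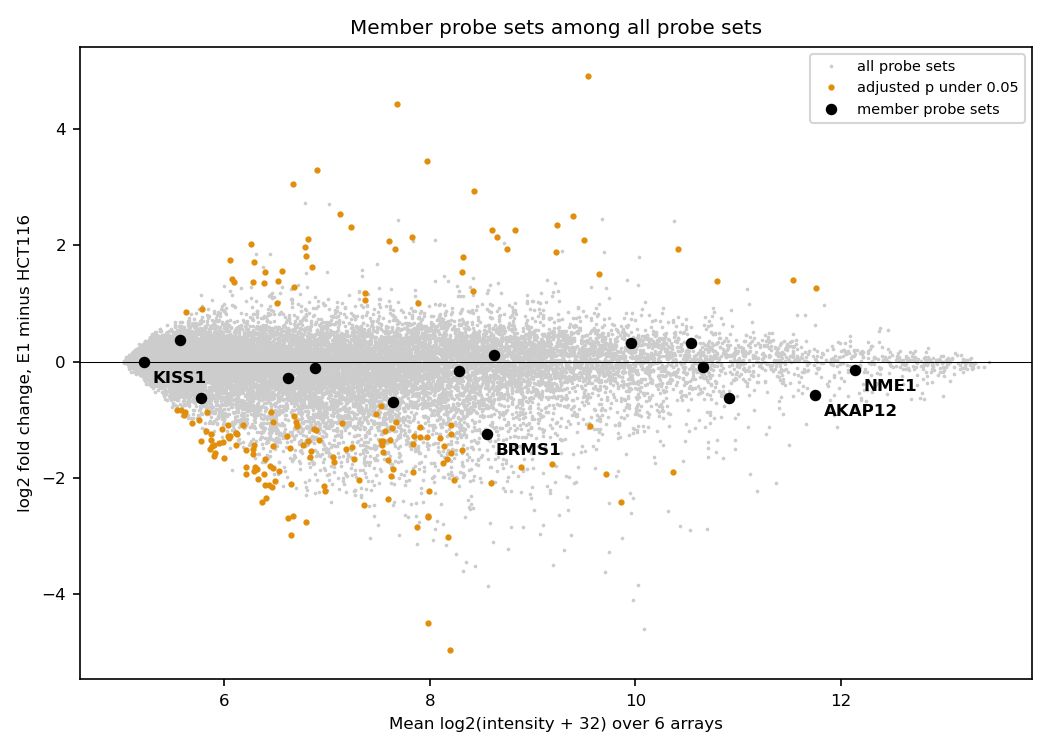
Difference between E1 and HCT116 in log2(intensity + 32) against the mean log2(intensity + 32) over 6 arrays, with 1 point per probe set; orange points have an adjusted p under 0.05 and black points are the 15 member probe sets. The members lie from KISS1 at the dim end to NME1 at the bright end, within the cloud of all probe sets and with none among the orange points.

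Other genes of the same functions were examined in 9 lists holding 93 measured genes, each gene represented by its brightest probe set on average. Of the 93, 1 was called higher and 0 lower in E1, where 0.518% of all genes were called. At an unadjusted p under 0.05, there were 8 on the higher and 15 on the lower side, against 5.53% and 9.7% of all genes. Among 15 other genes described as metastasis suppressors the called gene was DLC1, a GTPase-activating protein. It read 131, 72.3 and 139.9 in E1, against 23.4, 13.6 and 15.7 in HCT116 on probe set 210762_s_at, without overlap. The difference was 1.54 (SE 0.22, adjusted p = 0.0495 in limma) and 1.73 with E1 array 1 alone, where it was not called (adjusted p = 0.187). The other 2 probe sets of DLC1 stood at 0.54 and 0.33, with adjusted p of 0.254 and 0.419. DLC1 lost its call in 10 of 16 alternatives, among them leaving out any 1 array other than E1 array 1, with values from 0.85 to 2.62. The 15 genes had a median difference of 0.033, against -0.0055 for all genes, and 8 were positive and 7 negative.

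With all arrays the partners of the kinase-linked members gave no calls. Of 9 measured RAF-MEK-ERK genes, the pathway that PEBP1 restrains, 0 were called, while an unadjusted p under 0.05 was reached by 1 higher and 4 lower genes. ARAF, a RAF kinase, read 179, 96.7 and 68.3 in E1, against 366, 274 and 318 in HCT116, a difference of -1.32 (SE 0.29, adjusted p = 0.116 in limma) and of -0.73 with E1 array 1 alone. GRB2, the adaptor between receptors and RAS activation, differed by -0.79 (SE 0.18, adjusted p = 0.123 in limma) and by -0.91 with E1 array 1 alone. The median of the 9 was -0.79, or -0.44 when only E1 array 1 was used. Of 21 genes of the JNK and p38 cascade downstream and upstream of MAP2K4, 0 were called, 1 higher and 2 lower genes reached an unadjusted p under 0.05, and the median was -0.046. MAPK13, a p38 kinase, differed by -0.85 (SE 0.16, adjusted p = 0.0897 in limma), by -0.64 with E1 array 1 alone and by -0.29 on its other probe set. DUSP10, a phosphatase of JNK and p38, differed by 1.04 (SE 0.31, adjusted p = 0.198 in limma), by 0.91 with E1 array 1 alone and by 0.44 on its other probe set. MAP2K6, a p38 kinase kinase also described as a suppressor, differed by -0.11 (adjusted p = 0.881 in limma), with 0.038 under array median subtraction and 0.036 with E1 array 1 alone. Its other probe set, dim at the 18.8th percentile of signal, stood at -0.22 (adjusted p = 0.364 in limma) and at -0.15 with E1 array 1 alone. There every E1 array lay below every HCT116 array, as for 13% of all probe sets.

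Of 13 genes of kinase anchoring and of protein kinase A, which AKAP12 binds, 0 were called, and 2 higher and 2 lower genes reached an unadjusted p under 0.05. The catalytic subunit PRKACB read 2833, 2761 and 3731 in E1, against 1258, 1829 and 1577 in HCT116, a difference of 0.99 (SE 0.19, adjusted p = 0.0970 in limma) and of 0.87 with E1 array 1 alone. The other PRKACB probe set stood at 0.83. The regulatory subunit PRKAR2B differed by 1.02 (SE 0.23, adjusted p = 0.128 in limma) and by 0.67 with E1 array 1 alone. PRKACB and PRKAR2B had E1 arrays above all HCT116 arrays, as did 7.45% of all probe sets. Of 10 SIN3-HDAC genes, 0 were called, and 1 higher and 0 lower genes reached an unadjusted p under 0.05. That gene was the deacetylase HDAC1, at 0.76 (SE 0.18, adjusted p = 0.140 in limma) and 0.44 with E1 array 1 alone, and the histone reader ING2 stood at 0.36 (SE 0.16) and 0.28 with E1 array 1 alone. A dimmer ING2 probe set had the opposite sign, at -0.43 (adjusted p = 0.310 in limma) and -0.62 with E1 array 1 alone. The median of the 10 was 0.044, and -0.33 when only E1 array 1 was used.

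With all arrays the remaining families likewise held no called gene. Of 12 thioredoxin and arrestin genes, 1 higher and 3 lower genes reached an unadjusted p under 0.05, led by mitochondrial thioredoxin TXN2 and its reductase TXNRD2. TXN2 stood at -0.63 (SE 0.11, adjusted p = 0.0805 in limma) and at -0.69 with E1 array 1 alone, and its other probe set at -1.59 and -0.52. With an offset of 100 TXN2 was called, at -0.53 (adjusted p = 0.0497 in limma). TXNRD2 stood at -1.23 (SE 0.34, adjusted p = 0.179 in limma) and at -0.43 with E1 array 1 alone, and its other probe set at -0.0088. Of 7 gelsolin relatives, an unadjusted p under 0.05 was reached by 1 on the higher and 1 on the lower side. The capping protein CAPG read 539, 88.4 and 77.8 in E1, against 886, 1290.0 and 552 in HCT116, a difference of -2.18 (SE 0.69, adjusted p = 0.216 in limma), and of -0.64 with E1 array 1 alone. Supervillin, SVIL, stood at 0.56 (SE 0.20) and at 0.24 with E1 array 1 alone, and its other 2 probe sets at 0.069 and 0.21. Of 4 NME relatives, none had an unadjusted p under 0.05, and NME4 and NME3 stood at -0.42 and -0.71 but at 0.036 and 0.26 with E1 array 1 alone. Of 3 DRG partners, ZC3H15, which binds and stabilises DRG1, differed by -0.94 (SE 0.25, adjusted p = 0.172 in limma) and by -1.50 with E1 array 1 alone. The other 2 probe sets of ZC3H15 had the opposite sign with all arrays, at 0.12 and 0.26, and stood at -0.33 and 0.23 with E1 array 1 alone. DRG2 stood at -1.17 (SE 0.50) but at 0.0084 with E1 array 1 alone, and its other probe set at -1.72 and -0.36.

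These families were called more often without E1 array 1, when only the arrays with low 5' control signal stood for E1. Of the 93 genes, each by 1 probe set, 16 were then called. The share over all probe sets was 10.6%, and a share over genes by 1 probe set is not given for this fit. Of the named genes, TXNRD2, DRG2, ARAF, CAPG, NME3, MAPK13, TXN2 and ZC3H15 were then lower, at -1.63, -1.76, -1.62, -2.96, -1.19, -0.95, -0.60 and -0.65. HDAC1 and PRKACB were then higher, at 0.92 and 1.05, as was PRKAR2B (adjusted p = 0.0301 in limma), and DLC1, at 1.44, kept its call (adjusted p = 0.024).

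**Figure D4:**
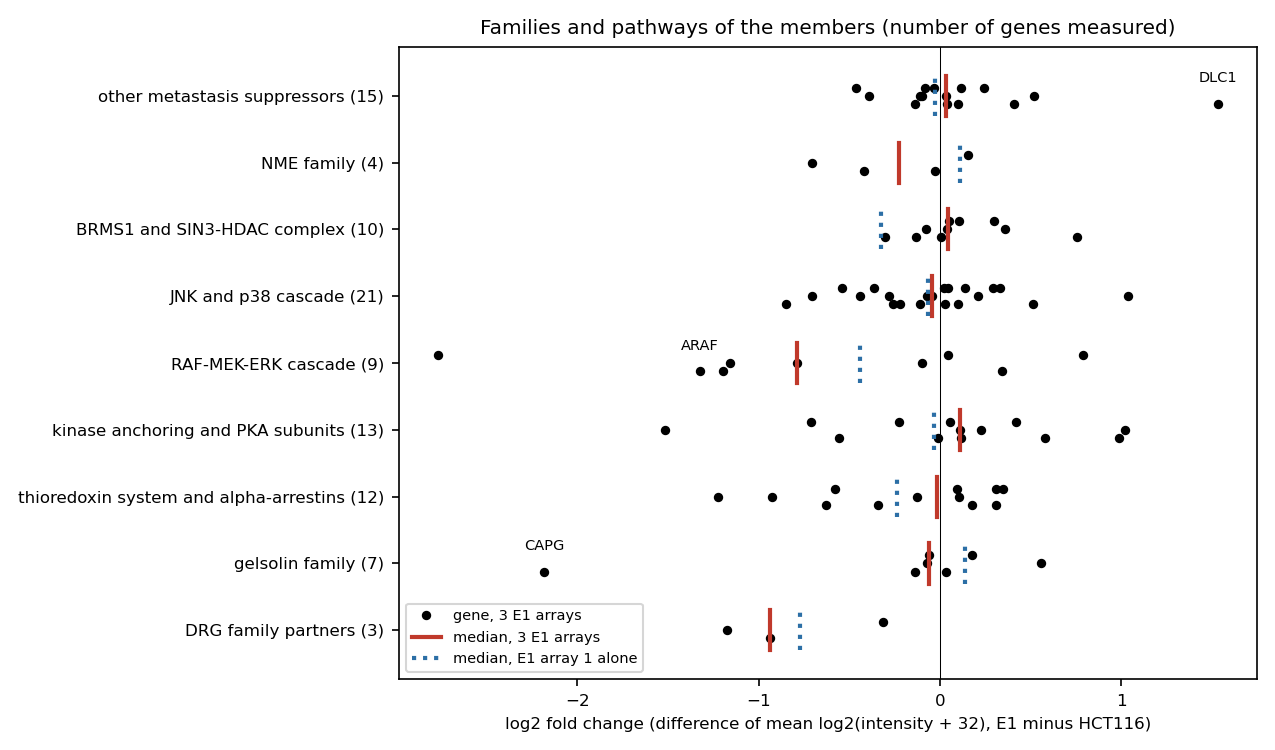
Difference between E1 and HCT116 in log2(intensity + 32) for each measured gene of 9 lists, with 1 black point per gene, a red bar for the list's median and a dotted blue bar for the median with E1 array 1 alone. Medians run from -0.94 for the 3 DRG partners to 0.11 for the 13 kinase anchoring genes, and the dotted bar lies on the other side of 0 for 5 lists, such as the NME family with medians of -0.22 for 3 E1 arrays and 0.11 for E1 array 1 alone.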

How the data were processed

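The deposited table holds linear intensities of 22283 probe sets on each array, from 0.0379 to 12154. How the authors summarised, background-corrected or scaled these intensities is not given in the sources used here. Per the labels, RNA was prepared with Trizol and carried a biotin label. Tests excluded 68 control probe sets. Of the remaining 22215, 19065 carried 1 gene symbol in GEO's platform annotation, 1043 several and 2107 none, and only the first kind was named, for 11963 genes. RefSeq (GRCh38.p14) held 11954 of these and changed 0 symbols.

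Values were transformed as log2(intensity + 32), which understates changes of dim genes, with no further normalization. E1 minus HCT116 was fitted with limma 3.58.1 in R 4.3.3 (lmFit, eBayes) on single probe sets, two-sided, with Benjamini-Hochberg adjustment over 22215 probe sets and calls at an adjusted p under 0.05. Listed genes stand by their probe set with the highest mean. Median array intensities were 61.3, 48.1 and 53.7 for E1 and 66.6, 61.9 and 62.3 for HCT116, and 3 arrays per line limit the precision.

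All member probe sets are named. Of each list the text names up to 3 called genes with the smallest p, or the 2 smallest where none was called, besides NDRG1, NME2, KISS1R and MAP2K6 where measured. Members, lists and tests were chosen with earlier results of these data known. In 20 simulations with 200 of 22215 probe sets changed, the fit recovered 33.2% of changes of 1 on the log2 scale, 76.7% of changes of 2 and 91.5% of changes of 3, with 3.94% false calls. Alternatives were quantile normalization, array median subtraction, offsets of 1 and 100, leaving out the dimmest 40% of probe sets, trended and robust eBayes, the replicate number as a block, leaving out each array, E1 array 1 alone, the GAPDH ratio as a covariate, a threshold of 0.01, and 1 value per gene.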

Additional observations from a re-analysis of the deposited data

How the results depend on the processing

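No member probe set was called in any alternative, at adjusted p of 0.0754 or more. The count of all called probe sets, 171, was 111 with an offset of 100, 310 without the dimmest 40% of probe sets, 6 with the GAPDH ratio as a covariate, 0 with E1 array 1 alone (2791 at an unadjusted p under 0.05), 5 at a threshold of 0.01, 50 with 1 probe set per gene and 47 with probe sets averaged per gene. Fits without 1 array gave 5 to 2358, the highest without E1 array 1. The split was 48 higher and 123 lower, and 79 and 108 after quantile normalization and 79 and 127 after median subtraction. Of the listed genes, 1 was called, against 0 with the GAPDH covariate, E1 array 1 alone, the threshold of 0.01, 1 probe set per gene and the mean of probe sets, and 0 to 16 when 1 array was left out, the highest without E1 array 1. With an offset of 100 the called gene was TXN2 (adjusted p = 0.0497 in limma) and DLC1 was not called (adjusted p = 0.0881). With the replicate number as a block, 0 of all probe sets were called in limma (3126 at an unadjusted p under 0.05) and 0 listed genes. Same-numbered arrays deviated from their line means with correlations of -0.041, -0.31 and -0.086, and no array correlated best with the array of its own number, so the pairing of arrays rests on the number alone.

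Signs turned for small differences, and with E1 array 1 alone also for larger ones. Among the latter were DRG2, NME3 and NME4, at -1.17, -0.71 and -0.42 with all arrays. After median subtraction NME1 stood at 0.0090, KISS1 at 0.13, TXNIP 201009_s_at at 0.039, DRG1 at 0.057, MAP2K6 at 0.038 and NDRG1 at 0.12. After quantile normalization TXNIP 201009_s_at stood at 0.037, MAP2K6 at 0.054 and NDRG1 at 0.065. With E1 array 1 alone TXNIP 201009_s_at stood at 0.19, MAP2K6 at 0.036, NDRG1 at 0.40, NME4 at 0.036, NME3 at 0.26 and DRG2 at 0.0084. With the GAPDH covariate TXNIP 201009_s_at stood at 0.014, NDRG1 at 0.30, NME4 at 0.0021 and NME3 at 0.25. Over fits that left out 1 array, the values ran from -0.34 to 0.018 for NME1, -0.051 to 0.0078 for KISS1, -0.33 to 0.073 for MAP2K4 203266_s_at, -0.53 to 0.46 for TXNIP 201009_s_at, -0.29 to 0.48 for GSN 200696_s_at, -0.23 to 0.048 for DRG1, -0.31 to 0.039 for MAP2K6 and -0.27 to 0.35 for NDRG1. The causes were not tested. The filter on dim probe sets removed KISS1, TXNIP 201008_s_at and GSN 214040_s_at.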
